A study of Mus musculus with 6 samples.

Results

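Astrocytes are the star-shaped glial cells of the brain and are known by a set of transcripts for intermediate filaments, glutamate uptake, water and potassium balance, gap junctions and folate and lipid metabolism. A set of 36 such genes was looked up by symbol in the deposited table of 18058 genes, all 36 were found, and all 36 had a mean of at least 0.1 CPM (gene counts scaled to library size), as did 16762 genes of the whole table. The table holds whole brainstems of 1-month-old mice, with 3 wild type (WT, C57BL/6J) samples and 3 samples labelled Rag1-/-, the germline knockout strain B6.129S7-Rag1tm1Mom/J, which has no mature T and B cells. The animals were naive, with no cells implanted. The study names 3 brainstem samples per group, and each library is taken here as a separate mouse. Because brainstem was sequenced whole, fewer astrocytes and less RNA per astrocyte cannot be told apart in any value below.

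Astrocytes take up the glutamate that neurons release, turn it into glutamine, buffer potassium and water around vessels, and are joined to each other by connexin channels. In the study, sections of uninjected brainstem were stained for GFAP, EAAT2 and ALDH1L1 to count astrocytes, so the transcripts of these proteins, Gfap, Slc1a2 and Aldh1l1, are described first. Where values are listed per group they stand in the order of replicates 1, 2 and 3. The lowest value of any of the 36 in any library was 1.62 CPM, for Chrdl1, whereas 3 reads stood for 0.0646 to 0.0950 CPM. Chrdl1 rested on an estimated 51.0 to 86.0 reads in each library, a counting error of at least 10.8%, and each other gene on at least 535 reads. For 3 genes, Chrdl1, Prodh and Atp13a4, the counting error was larger in every library than the spread within a group.

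The libraries differed in ways that bear on these genes. Rag1 itself, given in the same order, was at 0.236, 0.388 and 0.115 CPM in WT and 2.60, 4.02 and 2.90 CPM in libraries labelled Rag1-/-, a direction opposite to a loss of transcript. Values per gene do not show whether a transcript is intact, so they do not settle the genotype either way. The libraries are named by their label throughout. Transcripts of the cerebellum, which adjoins the brainstem, were high in WT replicate 3. Its median over 12 cerebellar genes lay 1.76 above the 6-library mean on the log2 scale, against 0.18 above in replicate 2 labelled Rag1-/- and between -0.57 and -0.19 in the other 4 libraries. Gabra6, a GABA receptor subunit of cerebellar granule cells, was at 25.8 CPM in WT replicate 3, at 9.31 CPM in replicate 2 labelled Rag1-/- and between 1.33 and 2.53 CPM in the others. Slc6a5, the glycine transporter of brainstem neurons, ran from 8.30 to 40.9 CPM and was lowest in these same libraries. WT replicate 1, not high in cerebellar transcripts, was at 17.9 CPM, close to the 15.4 CPM of WT replicate 3. Xist was above 100 CPM in WT replicates 1 and 2 and at or below 2.93 CPM elsewhere, so sex-linked expression differed between the groups.

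Gfap, the glial intermediate filament protein, lies on chromosome 11 from 102887336 to 102897200 (mm10, minus strand). Gfap was at 317, 374 and 425 CPM in WT and 318, 357 and 349 CPM in libraries labelled Rag1-/-. The groups overlapped, and the lowest WT value was below every value of the other group. The log2 fold change, taken as Rag1-/- minus WT on log2(CPM + 0.1) by limma-trend over all tested genes, was -0.12 (standard error 0.098, adjusted p = 0.664), with a 95% interval from -21.0% to 7.77%. Permuting the 6 samples exactly (two-sided) gave p = 0.5, where 0.1 is the smallest that 3 samples against 3 allow. The value rested in part on WT replicate 3, without which the log2 fold change was -0.014, and without WT replicate 1 it was -0.23 (limma-trend adjusted p = 0.497). With a term for the libraries high in Xist, in which WT replicate 3 alone stands for WT with low Xist, it was -0.32 (limma-trend adjusted p = 0.183).

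Slc1a2, which encodes EAAT2, the main glutamate transporter of astrocytes, lies on chromosome 2 from 102658683 to 102790784 (plus strand). Rag1 lies on the same chromosome, from 101638252 to 101649532. An effect of linkage to the knockout locus cannot be told apart from the genotype in these libraries and was not tested. Slc1a2 was at 1635, 1697 and 1523 CPM in WT and 1725, 1804 and 1771 CPM in libraries labelled Rag1-/-. Every library labelled Rag1-/- was above every WT library. Its log2 fold change of 0.13 (standard error 0.058) did not pass the adjusted test (limma-trend adjusted p = 0.441), and the 95% interval ran from -0.263% to 19.7%. By the exact permutation test p was 0.1. The log2 fold change was 0.084 without WT replicate 3 and 0.21 with the Xist term (limma-trend adjusted p of 0.619 and 0.223).

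Aldh1l1, a folate enzyme used as a general astrocyte marker, lies on chromosome 6 from 90550793 to 90599171 (plus strand). Aldh1l1 was at 67.6, 68.0 and 70.2 CPM in WT and 70.4, 70.2 and 67.4 CPM in libraries labelled Rag1-/-. The groups overlapped, and the spread within a group was among the smallest of the 36 genes. The log2 fold change was 0.015 (standard error 0.041, limma-trend adjusted p = 0.904), and the 95% interval ran from -5.31% to 7.89%. By the exact permutation test p was 0.9.

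The start regions of the astrocyte genes are shown for what they share in sequence. RefSeq (GRCm38.p6, the assembly of mm10) gave a start region for 32 of the 36 genes, and for 31 of them it began within 10 bases of the deposited gene start. For these the 250 bases before the start were searched on both strands, for letters chosen after the values were seen, and compared with 11321 tested genes matched in the same way. A median of 5 CG dinucleotides stood in these 250 bases, against 14 over all tested genes, and 13 of 31 (41.9%) held fewer than 5, against 15.5%. The letters TTCNNNGAA, the site form read by STAT factors, occurred in 7 of 31 (22.6%), against 5.83% of all, and TATAAA in 6 of 31 (19.4%), against 6.98%. TTGGC, the NFI half-site, occurred in 16 of 31 (51.6%), against 45.7%, and AACAAT, a SOX core, and the full palindromic NFI site (TTGGC and, 5 bases on, its reverse complement) in 0 of 31, against 5.37% and 0.0442%. These are descriptions of letters in a window, and the base composition of the window moves with them. The 250 bases before the start are printed 5′ to 3′ for the stained markers with a matched region, Gfap (chr11:102897201-102897450, minus strand) and Aldh1l1 (chr6:90550543-90550792, plus strand), for Ntsr2 (chr12:16653220-16653469, plus strand), which had the largest positive difference between the groups, and for Slc1a3 (chr15:8710808-8711057, minus strand), which held both TTCNNNGAA and TATAAA. Capitals mark matches to the letters searched.
Gfap: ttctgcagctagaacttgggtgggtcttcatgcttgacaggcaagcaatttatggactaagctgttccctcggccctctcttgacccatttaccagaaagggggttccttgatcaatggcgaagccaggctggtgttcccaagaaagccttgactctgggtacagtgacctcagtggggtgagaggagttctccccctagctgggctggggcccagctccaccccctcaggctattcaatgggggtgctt
Aldh1l1: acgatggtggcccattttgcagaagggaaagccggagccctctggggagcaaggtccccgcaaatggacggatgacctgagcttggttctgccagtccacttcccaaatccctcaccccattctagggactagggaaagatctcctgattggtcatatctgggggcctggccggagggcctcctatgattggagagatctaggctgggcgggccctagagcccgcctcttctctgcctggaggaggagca
Ntsr2: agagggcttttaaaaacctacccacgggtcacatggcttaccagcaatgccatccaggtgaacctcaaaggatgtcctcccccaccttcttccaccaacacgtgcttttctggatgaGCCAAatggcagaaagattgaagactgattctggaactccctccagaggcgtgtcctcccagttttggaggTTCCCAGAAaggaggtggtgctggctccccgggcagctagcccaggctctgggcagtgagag
Slc1a3: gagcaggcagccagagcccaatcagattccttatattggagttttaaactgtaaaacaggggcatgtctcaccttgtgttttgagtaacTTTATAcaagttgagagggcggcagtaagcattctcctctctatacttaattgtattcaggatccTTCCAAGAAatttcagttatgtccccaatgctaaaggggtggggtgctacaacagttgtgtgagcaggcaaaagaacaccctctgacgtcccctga
Gfap and Aldh1l1 held no match to any of the searched letters in this window, and Ntsr2 held a match to TTCNNNGAA and to the NFI half-site. The genes with TTCNNNGAA were Acsbg1, Agt, Ntsr2, Pla2g7, Prodh, Slc1a3 and Slc7a11, whose log2 fold changes between the groups ran from -0.20 to 0.21.

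The differences of all 36 genes were small. None had an adjusted limma-trend p under 0.05, as did 0.0477% of all tested genes, and the smallest adjusted p was 0.319, for Ntsr2. At an unadjusted p of at most 0.05 there were 4 (11.1%), against 11.6% of all tested genes. Of these, 2 were higher in the libraries labelled Rag1-/- (Ntsr2 and Aqp4), where 2.27% of all tested genes were, and 2 were lower (Glul and Slc7a11), where 9.29% were. The count of 4 is near the background. The direction split depends on scaling, with 8 higher and 0 lower after median-of-ratios rescaling, where 5.05% and 4.13% of all tested genes were, and 5 higher and 1 lower after quantile normalization, where 5.10% and 3.82% were. Over the 36 genes the median log2 fold change was 0.027, beside -0.051 over all tested genes, and 22 were above 0 (61.1%, against 32.3% of all tested genes). After median-of-ratios rescaling 27 were above 0, against 47.9%. For all 36 the 95% interval lay within 1.5-fold in either direction. The median depended on replicate 1 labelled Rag1-/-, without which it was -0.0022, and it was 0.065 without replicate 3 labelled Rag1-/- and 0.072 after median-of-ratios rescaling.

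**Figure D1:**
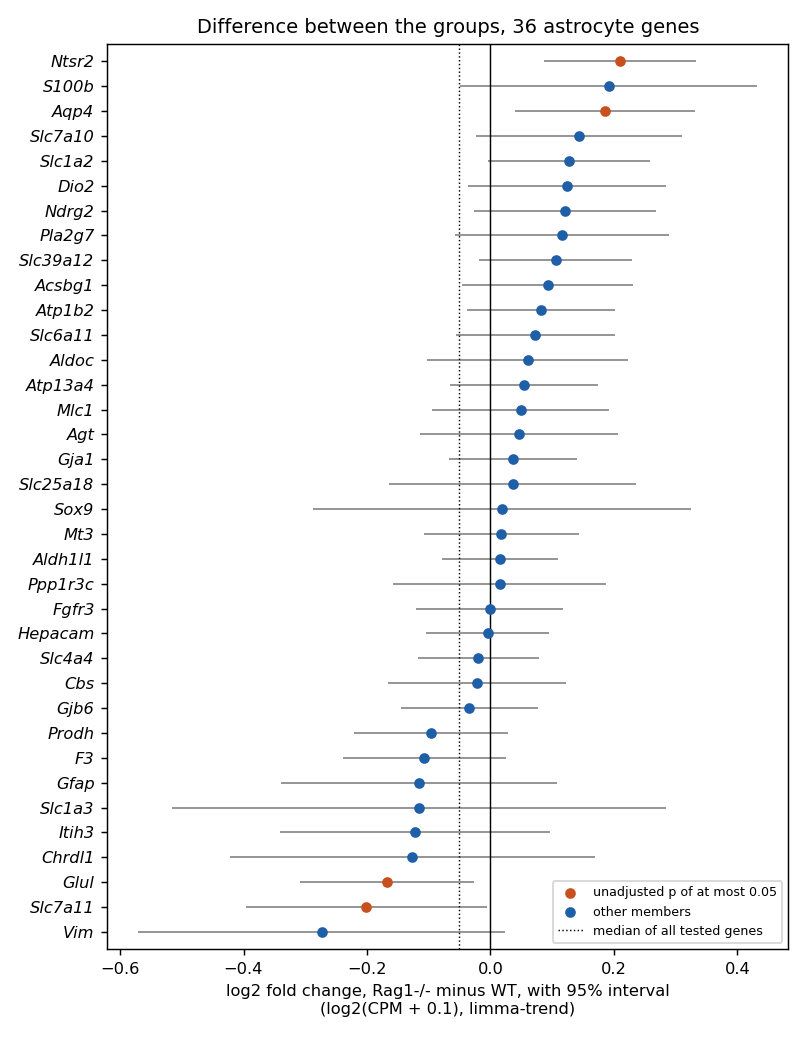
Log2 fold change of each of the 36 astrocyte genes (x axis, libraries labelled Rag1-/- minus WT, log2(CPM + 0.1)), each gene on its own line (y axis), with its 95% limma-trend interval as a bar. Points run from -0.27 for Vim to 0.21 for Ntsr2, 4 have an unadjusted p of at most 0.05, and the dotted line is the median of all tested genes at -0.051.

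Ntsr2, a neurotensin receptor found on astrocytes, lies on chromosome 12 from 16653470 to 16660236 (plus strand) and had the largest positive difference. Ntsr2 was at 218, 214 and 231 CPM in WT and 270.2, 258 and 239 CPM in libraries labelled Rag1-/-. Each library labelled Rag1-/- was above each WT library. Its log2 fold change was 0.21 (standard error 0.054, limma-trend unadjusted p = 0.00409 and adjusted p = 0.319, exact permutation p = 0.1), positive in all 15 alternative fits, with values from 0.15 to 0.26. Its unadjusted limma-trend p was 0.05 or less in 14 of these and 0.0713 with the Xist term.

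Aqp4, the water channel of astrocyte endfeet, lies on chromosome 18 from 15389394 to 15410982 (minus strand). Aqp4 was at 332, 380 and 337 CPM in WT and 413, 372 and 408 CPM in libraries labelled Rag1-/-. WT replicate 2 was above replicate 2 labelled Rag1-/-, so the groups overlapped. By the fit its log2 fold change was 0.19 (standard error 0.064, limma-trend unadjusted p = 0.0185 and adjusted p = 0.372, exact permutation p = 0.2), and the unadjusted p lay above 0.05 without WT replicate 1, without WT replicate 3, or without replicate 1 or replicate 3 labelled Rag1-/- (0.0707, 0.0517, 0.0688 and 0.0645), and also without the limma trend (0.0539) and with the replicate block (0.0508).

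Glul, glutamine synthetase, converts glutamate to glutamine in astrocytes and lies on chromosome 1 from 153899929 to 153909723 (plus strand). Glul was at 1671, 1813 and 1701 CPM in WT and 1582, 1439 and 1598 CPM in libraries labelled Rag1-/-. Every library labelled Rag1-/- was below every WT library. Glul had a log2 fold change of -0.17 (standard error 0.062, limma-trend unadjusted p = 0.0249 and adjusted p = 0.385, exact permutation p = 0.1). Glul is also made by oligodendrocytes, whose 14 markers all had a log2 fold change above 0, 11 of them (78.6%) at an unadjusted p of at most 0.05, beside 32.3% above 0 and 2.27% higher at that p among all tested genes, with a median of 0.23 and a summed level of 21294 to 24612 CPM in WT and 27345 to 28547 CPM in the libraries labelled Rag1-/-. The part of these cells in the Glul value was not tested. The unadjusted limma-trend p of Glul was 0.05 or less in 10 of the 15 alternative fits. It was 0.0863 without WT replicate 2, 0.0921 without replicate 2 labelled Rag1-/-, 0.0930 after median-of-ratios rescaling, 0.0827 with the replicate block and 0.149 with the Xist term.

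Slc7a11, the cystine and glutamate exchanger, lies on chromosome 3 from 50364936 to 50443613 (minus strand). Slc7a11 was at 42.0, 38.3 and 38.0 CPM in WT and 31.7, 39.4 and 32.2 CPM in libraries labelled Rag1-/-. Replicate 2 labelled Rag1-/- lay within the WT range and the other 2 libraries of that label below it. Slc7a11 had a log2 fold change of -0.20 (standard error 0.086, limma-trend unadjusted p = 0.0454 and adjusted p = 0.429, exact permutation p = 0.3), and the unadjusted p was 0.143 without WT replicate 1, 0.0545 without WT replicate 2, and 0.161 and 0.154 without replicate 1 and replicate 3 labelled Rag1-/-. It was 0.05 or less in 5 of the 15 alternative fits, and its highest value was 0.253, with the Xist term. Slc7a11 is also known from meningeal cells. The 10 meningeal fibroblast genes had a median log2 fold change of -0.21, with 9 of 10 below 0, and summed to 766 to 1199 CPM in WT and 567 to 867 CPM in the libraries labelled Rag1-/-. Their part in the Slc7a11 value was not tested.

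Vim, an intermediate filament protein of immature and reactive astrocytes that vessels and meninges also make, lies on chromosome 2 from 13574311 to 13582826 (plus strand) and had the largest negative difference. Vim was at 39.5, 38.3 and 56.3 CPM in WT and 35.5, 38.1 and 35.6 CPM in libraries labelled Rag1-/-. WT replicate 3 stood apart from the other 5 libraries, which ran from 35.5 to 39.5 CPM. The median of the 10 meningeal fibroblast genes was also highest in WT replicate 3, 0.36 above the 6-library mean on the log2 scale, and lowest in replicate 1 labelled Rag1-/- (-0.36), and their part in the Vim value was not tested. The log2 fold change was -0.27 (standard error 0.13, limma-trend adjusted p = 0.462), and -0.096 without WT replicate 3. With a term for the libraries high in Xist it was -0.63 (adjusted p = 0.0133), and in that fit WT replicate 3, the library high in cerebellar transcripts, is the only WT library with low Xist.

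Slc1a3, the glutamate transporter EAAT1 that radial glia and cerebellar Bergmann glia make at high levels, varied most between libraries of a group. Slc1a3 was at 222, 202 and 326 CPM in WT and 219.5, 269.6 and 195 CPM in libraries labelled Rag1-/-. The libraries with the highest Slc1a3, WT replicate 3 and replicate 2 labelled Rag1-/-, were also those with the highest cerebellar median. The 12 cerebellar genes, all with a log2 fold change below 0, summed to 231 to 751 CPM in WT and 239 to 370.4 CPM in the libraries labelled Rag1-/-. The part of cerebellar tissue was not tested. The log2 fold change was -0.12 (standard error 0.18, limma-trend adjusted p = 0.818), and 0.092 without WT replicate 3. With the Xist term it was -0.53 (limma-trend adjusted p = 0.145).

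**Figure D2:**
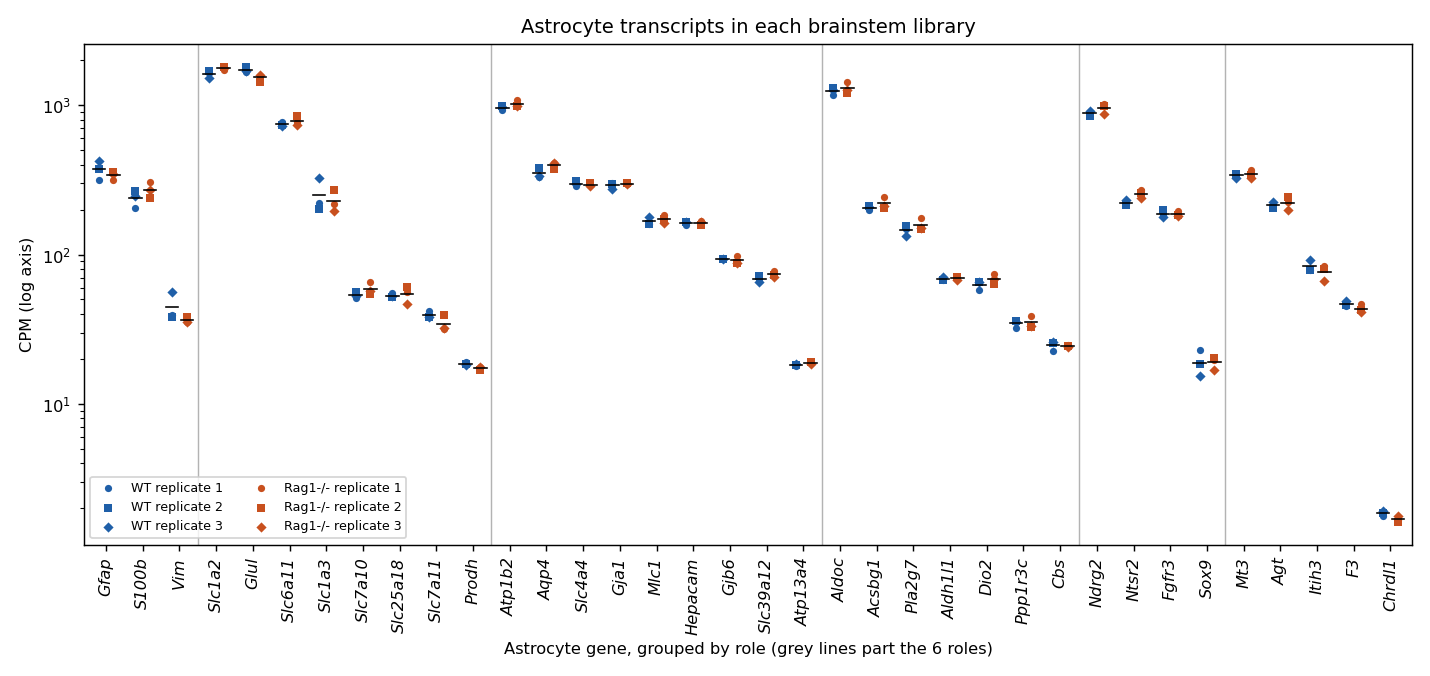
CPM (y axis, log) of the 36 astrocyte genes (x axis, grouped by role and sorted by level) in each of the 6 brainstem libraries, WT in blue and the libraries labelled Rag1-/- in orange, with a marker shape per replicate and a black line at each group mean. Group means lie close for every gene, and WT replicate 3 stands above the other libraries for Vim (56.3 CPM) and Slc1a3 (326 CPM).

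Among the other genes of glutamate and amino acid handling, none had an unadjusted p of at most 0.05. These were the GABA transporter Slc6a11, the neutral amino acid transporter Slc7a10, the mitochondrial glutamate carrier Slc25a18 and the proline dehydrogenase Prodh. Their log2 fold changes were 0.073, 0.14, 0.036 and -0.096. Prodh was at 19.1, 18.5 and 18.3 CPM in WT and 17.8, 16.9 and 17.5 CPM in libraries labelled Rag1-/-, without overlap (limma-trend adjusted p = 0.522, exact permutation p = 0.1).

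The water, ion and junction genes held 9 members with log2 fold changes from -0.034 to 0.19, of which 1, Aqp4, had an unadjusted p of at most 0.05. The gap junction genes Gja1 (connexin 43) and Gjb6 (connexin 30) had log2 fold changes of 0.037 and -0.034, and the Gja1 values spanned 276 to 304 CPM over all 6 libraries. Atp1b2, a sodium pump subunit, was at 934, 985 and 977 CPM in WT and 1081, 989 and 996 CPM in libraries labelled Rag1-/-, all above WT by a narrow margin (log2 fold change 0.082, limma-trend adjusted p = 0.563, exact permutation p = 0.1). Atp13a4, a cation-transporting ATPase, ran from 18.0 to 18.3 CPM in WT and from 18.4 to 19.1 CPM in the libraries labelled Rag1-/- (log2 fold change 0.054, limma-trend adjusted p = 0.706, exact permutation p = 0.1). Mlc1 and Hepacam, membrane proteins that form a complex at astrocyte junctions, had log2 fold changes of 0.049 and -0.0046, the bicarbonate cotransporter Slc4a4 -0.020 and the zinc transporter Slc39a12 0.11.

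Of the 7 enzymes, which besides Aldh1l1 were the glycolytic Aldoc, the fatty acid activating Acsbg1, the cystathionine synthase Cbs, the glycogen regulator Ppp1r3c, the thyroid hormone activating Dio2 and the lipase Pla2g7, 0 had an unadjusted p of at most 0.05. Their log2 fold changes ran from -0.022 for Cbs to 0.12 for Dio2, and the groups overlapped for all 7. The calcium-binding S100b had a log2 fold change of 0.19 with a wide standard error of 0.11 (limma-trend adjusted p = 0.511, exact permutation p = 0.3), and its WT values of 205, 265 and 245 CPM overlapped the 304, 241 and 271 CPM of the libraries labelled Rag1-/-. Without WT replicate 1 the S100b value was 0.087, and without replicate 1 labelled Rag1-/- it was 0.11. The transcription factor Sox9, the receptor Fgfr3 and the signalling protein Ndrg2 had log2 fold changes of 0.018, -0.00093 and 0.12. Among secreted and surface proteins, angiotensinogen (Agt), the metallothionein Mt3, the coagulation factor receptor F3, Itih3 and the bone morphogenetic protein antagonist Chrdl1 had log2 fold changes of 0.046, 0.018, -0.11, -0.12 and -0.13. The Itih3 value was -0.049 without WT replicate 3 and -0.018 without replicate 3 labelled Rag1-/-. Chrdl1, on the X chromosome, was at 1.77, 1.85 and 1.93 CPM in WT and 1.68, 1.62 and 1.77 CPM in libraries labelled Rag1-/-. The highest of the latter lay below the lowest WT value by less than the worth of 1 read, so the order of these values is within counting error.

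Libraries without overlap were found for 8 of the 36 genes. For 4 (Slc1a2, Atp1b2, Ntsr2 and Atp13a4; 11.1%) all libraries labelled Rag1-/- were higher, as for 3.98% of all tested genes. For 4 others (Glul, Vim, Prodh and Chrdl1; 11.1%) all were lower, as for 14.4% of all tested genes. Atp1b2, Atp13a4, Prodh and Chrdl1, like Slc1a3, are named here after their values were seen.

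The 36 genes differed from each other far more than between the groups. Per kilobase of exon, which allows levels to be compared between genes, the highest levels over the 6 libraries were those of Glul (585 CPM per kb), Ndrg2 (429), Aldoc (428), Atp1b2 (350) and Mt3 (321 CPM per kb). Slc1a2, the highest by CPM, was at 140 CPM per kb, Gfap was at 87.6 CPM per kb beside 87.7 for Gja1, and Aldh1l1 was at 16.5 CPM per kb. The lowest levels were those of Chrdl1 (0.262), Slc7a11 (3.75), Cbs (3.92), Atp13a4 (4.03) and Sox9 (4.57 CPM per kb). The spread within a group also differed. The coefficient of variation (pooled within-group SD over the 6-library mean) was lowest for Atp13a4 (1.61%), Prodh (2.27%) and Aldh1l1 (2.30%), and highest for Slc1a3 (22.7%), Vim (17.8%) and Sox9 (15.5%).

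Summed over the 36 genes, the transcripts amounted to 11092, 11591 and 11411 CPM in WT replicates 1, 2 and 3 and to 12037, 11558 and 11374 CPM in libraries labelled Rag1-/-, with overlap of the groups. The sum was 11364 ± 253 CPM in WT and 11656 ± 342 CPM (SD, 3 libraries each) in those labelled Rag1-/-. Replicate 1 labelled Rag1-/- held the highest value for 17 of the 36 genes, and its median over the 36 lay 0.064 above the 6-library mean on the log2 scale, while the other 5 libraries lay between -0.036 and 0.0066. WT replicate 3 held the highest value for 7 genes (Gfap, Vim, Slc1a3, Cbs, Itih3, Chrdl1 and F3) and the lowest for 7 others.

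**Figure D3:**
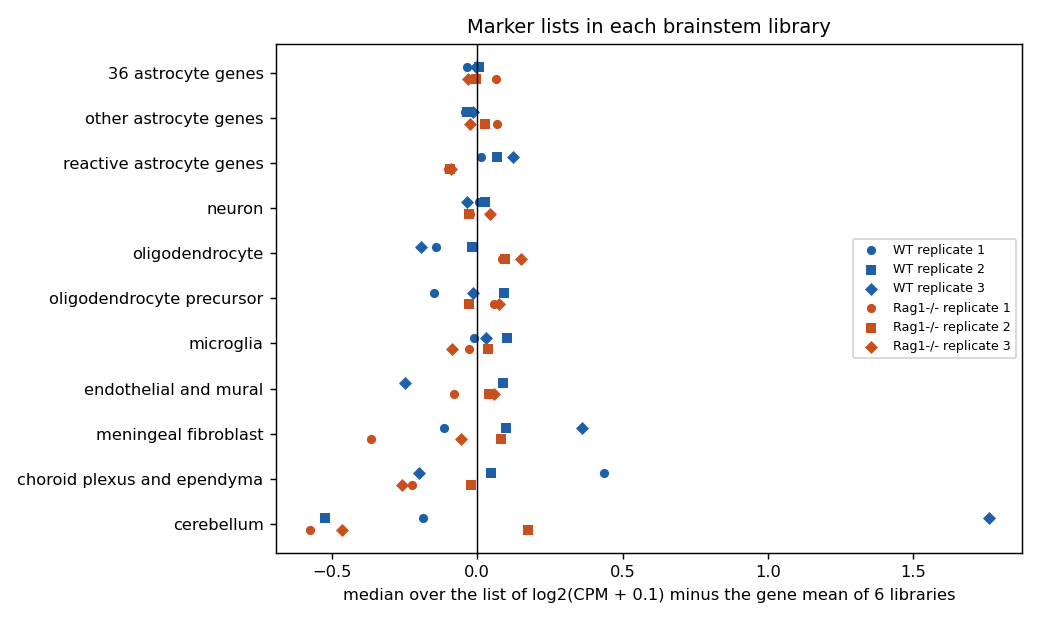
Median over each marker list (y axis) of log2(CPM + 0.1) minus the gene's mean over 6 libraries (x axis), for each WT library in blue and each library labelled Rag1-/- in orange. The 36 astrocyte genes stay between -0.036 and 0.064 in all 6 libraries, whereas the cerebellum list reaches 1.76 in WT replicate 3.

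The astrocyte genes can be set beside the marker lists of the cells around them. The median log2 fold changes were -0.030 for 15 neuron genes, 0.054 for 8 oligodendrocyte precursor genes, -0.061 for 12 microglia genes and -0.022 for 12 endothelial and mural genes. They were -0.31 for 9 choroid plexus and ependyma genes and -0.44 for 12 cerebellar genes. Of 40 other genes known from astrocytes, 27 were above 0 (67.5%, beside 32.3% of all tested genes), with a median log2 fold change of 0.078. At an unadjusted p of at most 0.05 there were 3 (7.50%, beside 11.6%), all higher in the libraries labelled Rag1-/- (beside 2.27% higher). These were Ttyh1, a volume-regulated channel protein, Gpam, a glycerolipid synthesis enzyme, and Entpd2, an ectonucleotidase, with log2 fold changes of 0.13, 0.13 and 0.18 and adjusted limma-trend p of 0.399, 0.401 and 0.405. The count for these 40 genes was 13 higher after median-of-ratios rescaling and 8 after quantile normalization, where 5.05% and 5.10% of all tested genes were higher. It was 1 without the limma trend and 1 with the replicate block, where 2.12% and 1.52% were higher. Without replicate 1 labelled Rag1-/- it was 0 higher and 0 lower, where 6.65% of all tested genes had such a p in either direction. Without WT replicate 3 it was 5 higher and 4 lower, where 2.33% and 9.29% were, and with the Xist term also 5 and 4, where 3.96% and 12.3% were. Over the other libraries left out, it ran from 1 to 6 higher and 0 to 2 lower, where 1.70% to 2.35% and 7.04% to 9.75% of all tested genes were. By adjusted limma-trend p, 1 of the 40 was under 0.05 with the Xist term (Slco1c1, a thyroid hormone transporter, 0.0477), where 134 of 16762 tested genes were.

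Genes known to be induced in reactive astrocytes, many of which are also interferon, antigen presentation or microglial genes, mostly had values below 0. Of 38 such genes 36 were tested, 31 had a log2 fold change below 0 and 5 above (13.9%, beside 32.3% of all tested genes), and the median was -0.18 (-0.11 without WT replicate 3). After median-of-ratios rescaling 9 of the 36 were above 0 (25.0%, beside 47.9% of all tested genes), and after quantile normalization also 9 (25.0%, beside 50.9%). At an unadjusted p of at most 0.05, 8 were lower (22.2%, beside 9.29% of all tested genes) and 0 were higher (beside 2.27%). By adjusted limma-trend p, 1 was under 0.05, H2-D1, an MHC class I gene with near-identical copies that its reads may also match. H2-D1 was at 65.4, 73.1 and 66.7 CPM in WT and 46.8, 49.9 and 50.9 CPM in libraries labelled Rag1-/-, and it fell by 0.47 on the log2 scale (limma-trend adjusted p = 0.0443). The adjusted p of H2-D1 exceeded 0.05 in 13 of the 15 alternative fits, in which it ran from 0.0346 to 0.328. With the Xist term, in which WT replicate 3 alone stands for WT with low Xist, 3 genes of the list had a limma-trend adjusted p under 0.05, namely Fkbp5, Cd44 and Serping1, with 0.00584 the lowest and 0.0329 that of Cd44, where 134 of 16762 tested genes were, and H2-D1 was not among them. The other 7 did not pass the adjusted test without that term. They were Cd44, a hyaluronan receptor, at 4.44, 4.95 and 6.38 CPM in WT and 3.21, 2.82 and 3.02 CPM in the libraries labelled Rag1-/- (log2 fold change -0.77, limma-trend adjusted p = 0.216), the low chemokine Cxcl10 (0.850, 1.46 and 0.661 CPM in WT and 0.173, 0.349 and 0.370 CPM in the libraries labelled Rag1-/-, -1.43, adjusted p = 0.289, from -1.70 to -0.60 in the 14 alternative fits that tested it), the guanylate-binding protein Gbp2 (-0.40), the MHC class I gene H2-T23 (-0.34), the complement component C3 (-0.46), the surface protein Cd109 (-0.38) and the immunoproteasome subunit Psmb8 (-0.34). For 9 of the 36 (25.0%), these 8 and Tm4sf1 (named after its values were seen), all libraries labelled Rag1-/- were below all WT libraries, as for 14.4% of all tested genes, and for 0 all were above. Cd44 lies on chromosome 2 from 102811142 to 102901665, the chromosome that also holds Rag1 (101638252 to 101649532). For Cd44, too, an effect of linkage to the knockout locus cannot be told apart from the genotype and was not tested. Other genes of the list that are usual signs of reactive astrocytes, Lcn2, Serpina3n, Timp1 and Steap4, named after their values were seen, had log2 fold changes of -0.38, -0.19, -0.17 and 0.082 with unadjusted limma-trend p between 0.124 and 0.781. Gfap and Vim, the filament genes that reactive astrocytes are best known for, are given above.

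**Figure D4:**
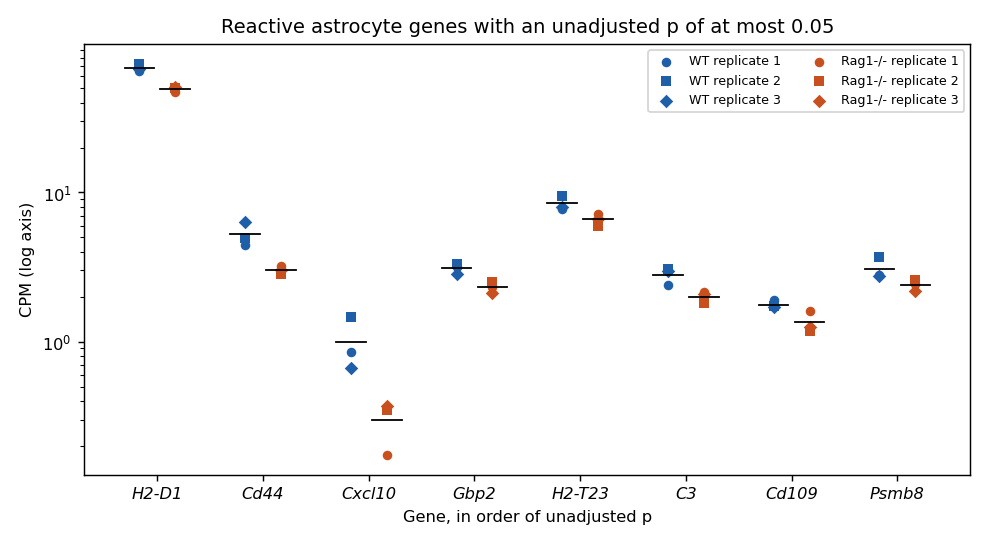
CPM (y axis, log) of the 8 reactive astrocyte genes whose unadjusted p was 0.05 or less (x axis, in order of p), in each WT library (blue) and each library labelled Rag1-/- (orange), with black lines at group means. The groups do not overlap for any of the 8, and H2-D1, at the left, is the gene with an adjusted p under 0.05.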

How the data were processed

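Total RNA of 6 whole brainstem samples, 3 WT and 3 labelled Rag1-/-, was sequenced. The authors aligned reads to mm10 RefSeq transcripts with STAR 2.5.3a and, with Partek Flow, turned gene counts into the deposited CPM values, whose minimum in each library is 0.0001. A filter on genes by level before deposit is not given in the sources used here. The study's methods do give a filter on its test results, by p and by fold change. The step of 1 read among low values gave estimated depths of 31600000 to 46400000 reads. With a tolerance of 0.1 read, 85.3% to 86.7% of low values came out whole, too few for a count test. Levels stated as 3 reads cover counting error only.

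From the deposited CPM, log2(CPM + 0.1) was tested by limma-trend (limma 3.58.1, R 4.3.3), the model that the study's methods name, over 16762 genes (mean 0.1 CPM or more), with Benjamini-Hochberg adjustment over all of them, and 1296 genes were left out. Single genes also had an exact two-sided permutation test. The fit was tested on simulated data. Exon lengths were unions of protein-coding GENCODE exons. Gene coordinates are those of the table, with the end 1 base before the deposited stop.

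Values were printed in every library for Gfap, Slc1a2 and Aldh1l1, for members whose unadjusted p was 0.05 or less and for the largest difference in each direction; in the lists of other and reactive astrocyte genes, those with such a p were named. The members and lists were chosen with earlier results of these data known. The alternatives were other pseudocounts, filters and scalings, no trend, a replicate block, a term for libraries with Xist over 100 CPM, and leaving out each library.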

Additional observations from a re-analysis of the deposited data

How the results depend on the processing

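Of the 36 genes' log2 fold changes under alternatives that kept all libraries, 14 of 324 changed sign and 1, Vim, passed an adjusted p of 0.05. With a library left out, 21 of 216 changed sign and none passed. Why they changed was not tested, and the cause was not tested for any value below. With median-of-ratios rescaling the values that changed sign were 0.023 for Cbs, 0.044 for Fgfr3, 0.011 for Gjb6, 0.041 for Hepacam and 0.026 for Slc4a4, and with quantile normalization 0.017 for Cbs, 0.032 for Fgfr3, 0.017 for Hepacam and 0.0024 for Slc4a4. With the Xist term they were -0.023 for Agt, -0.019 for Aldh1l1, 0.058 for Fgfr3, -0.063 for Mlc1 and -0.025 for Ppp1r3c. With 1 library left out, values ranged from -0.017 to 0.12 for Agt, -0.0081 to 0.11 for Aldoc, -0.084 to 0.015 for Cbs, -0.037 to 0.042 for Fgfr3, -0.0022 to 0.066 for Gja1, -0.032 to 0.021 for Hepacam, -0.034 to 0.059 for Mt3, -0.063 to 0.060 for Ppp1r3c, -0.25 to 0.092 for Slc1a3, -0.048 to 0.14 for Slc25a18, -0.042 to 0.0062 for Slc4a4 and -0.12 to 0.16 for Sox9. A further 17 genes of the 36 kept their sign but moved by over 1.5 times with a library left out. They were Acsbg1, Aldh1l1, Atp1b2, Dio2, F3, Gfap, Gjb6, Itih3, Mlc1, Ndrg2, Pla2g7, S100b, Slc1a2, Slc39a12, Slc6a11, Slc7a10 and Vim. The median of the 36 genes (0.027) was 0.072 with median-of-ratios rescaling and ranged from -0.0022 to 0.065 with a library left out. That of the other astrocyte genes (0.078) was 0.12 under median-of-ratios, 0.022 with the Xist term and 0.044 to 0.096 with a library left out. That of the reactive genes (-0.18) was -0.14 with median-of-ratios rescaling, -0.13 with pseudocount 1, -0.11 with quantile normalization and -0.28 with the Xist term, and ranged from -0.23 to -0.11 with a library left out.

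The number of the 36 with an unadjusted p of at most 0.05 (4) was 8 with median-of-ratios rescaling, 9 with the Xist term, 2 without the limma trend and 1 with the replicate block (22.2%, 25.0%, 5.56% and 2.78% of the 36, beside 9.18%, 16.3%, 9.79% and 8.10% of all tested genes), and 3 to 6 with a library left out (6.65% to 12.1% of all tested genes). The number with an adjusted p under 0.05 (0) was 1 with the Xist term (Vim), where 134 of 16762 tested genes passed against 8 without it. As for pairing, the deviations from the group means correlated between same-numbered libraries at 0.0926, -0.22 and -0.0183 over genes. These values do not settle whether same-numbered libraries were paired, and the labels give only a number. The replicate block added no adjusted call among the 36, and with 0 in the main fit it had none to remove. Counting error exceeded the spread within a group in every library for Chrdl1, Prodh and Atp13a4.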
